A study of Homo sapiens with 45 samples.

Results

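AC1.230 is a clonal line of HEK293F, a human embryonic kidney derivative grown in suspension, and its genotype is labelled WT. The comparison described here is between libraries taken 72 h and 24 h after transfection of this line for the production of recombinant adeno-associated virus (rAAV). Members were chosen by sample title alone: 3 libraries of AC1.230 at 72 h and 3 at 24 h, 6 of the 45 libraries of the series. All cultures grew in Expi293 medium on a shaker, and for production the cells were put into fresh medium and transfected with TransIT-VirusGEN and 3 plasmids: pHelper, RepCap9, and a reporter plasmid with the viral inverted terminal repeats (ITRs). Another 3 libraries of AC1.230 at 0 h, before transfection, give the starting level of each gene. The same 2 times in 4 other HEK293F lines, the clonal AC1.112 and AC1.203, the polyclonal AC1P and 293F (24 libraries), show where the change in AC1.230 was unlike theirs. No mock-transfected library was analysed, so time after transfection, days in culture and vector production cannot be told apart. AC1.230 is 1 clone, and nothing in the labels says that its replicates came from separate cultures. All p-values are therefore set against the spread of these samples alone, and that spread may be technical.

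In this system the helper plasmid supplies adenoviral functions, the Rep proteins replicate the ITR-flanked genome and the Cap proteins package it, and HEK293 cells themselves carry the adenoviral E1 genes. By 24 h the cells are expressing the transfected genes, and production runs on over the following days. Several host programmes can be read from messenger RNA in such cells. Signalling through Ras and the kinase ERK induces transcription factors of the immediate early class and, with them, the proteins that switch the pathway off again: dual specificity phosphatases (DUSP), Sprouty (SPRY) and Spred proteins. NF-kB, a family of transcription factors held in the cytoplasm by inhibitors such as the NFKBIA protein, induces cytokines together with its own inhibitors, which gives a comparable feedback loop. In bulk libraries, a change in the RNA of each cell and a change in the number of cells that express a gene cannot be told apart.

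The 6 libraries held 36718815 to 47573020 counts each. Libraries of a time correlated at r = 0.987 to 0.990 over log2 CPM, and libraries of different times at 0.983 to 0.988. Counts of mitochondrial genes made up 2.05% to 2.94% of the 24 h libraries and 2.91% to 3.40% of the 72 h libraries. Replicate 2 at 24 h stood apart: on the second principal component of the 9 AC1.230 libraries it lay at -48.0, against -22.4 and -25.8 for the other 24 h libraries. Counts that depend on it are therefore given with and without it. Of 9 genes taken as features of HEK293 cells, kidney and neuronal genes and vimentin (VIM), 8 had 10 or more counts in every one of the 6 libraries. Their summed level was 4472 to 4761 CPM (counts per standard library size, scaled between libraries) at 24 h and 4261 to 4686 CPM at 72 h. VIM, which is not specific to kidney or neurons, gave 944 to 1180 CPM of this at 24 h and 694 to 713 CPM at 72 h. Haematopoietic markers summed to 6.38 to 9.29 CPM at 24 h and 8.57 to 9.31 CPM at 72 h, with PTPRC at 0 in all 6 libraries, and hepatocyte markers summed to less than 1 CPM, with TTR at 0.

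**Figure D1:**
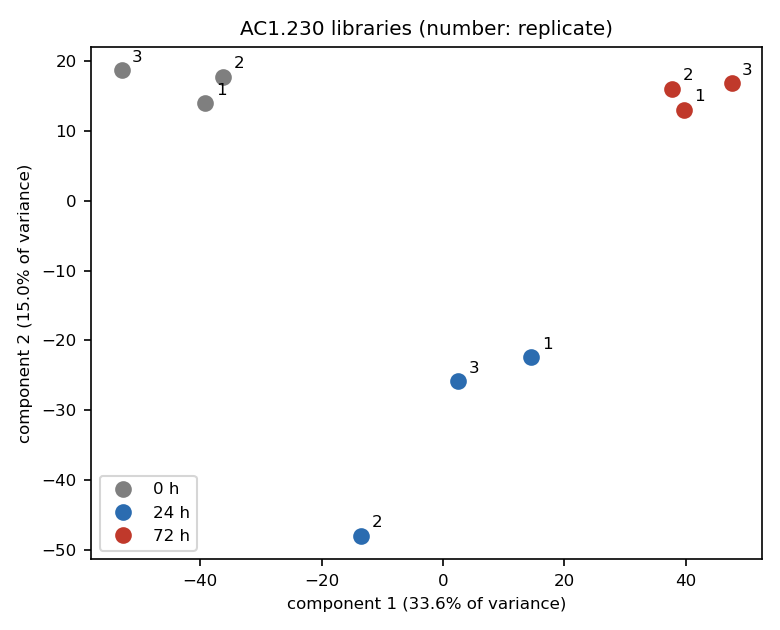
Each point is 1 AC1.230 library on the first 2 principal components of log2 CPM (33.6% and 15% of the variance), numbered by replicate and coloured by time. The 0, 24 and 72 h libraries form separate groups, and replicate 2 at 24 h lies lowest on component 2, at -48.0.

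Between 24 and 72 h most changes in abundant genes of AC1.230 were small, and most genes that passed with a rise of 2-fold or more were rare. Whether rare genes rose as a class was not tested. Of 21242 genes tested, 382 were called higher at 72 h (1.8%) and 31 lower (0.146%), where a called gene had a Benjamini-Hochberg adjusted p under 0.05 and changed by 1 or more on the log2 scale. With no minimum fold, 1654 genes rose (7.79%) and 2485 fell (11.7%); "rose" and "fell" are used in that sense below. Without replicate 2 at 24 h the called genes numbered 235 higher and 16 lower, and the genes that passed with no minimum fold 1131 and 1219. List counts given below without that library are to be read beside this general loss. The genes called higher were mostly scarce: their median abundance was -0.64 log2 CPM, against 3.06 over all genes tested, and 18 of them had no count in any 24 h library. Protein-coding genes made up 57.1% of those called higher (218 of 382) and 71.5% of the genes tested. Among the 10724 genes with a mean log2 CPM of 3 or more, 855 rose, 2321 fell and 15 were called. The median size of the change in those that passed was 0.26 on the log2 scale. The root mean square log2 change of these abundant genes was 0.20 in AC1.230, beside 0.18 in AC1P, 0.24 in AC1.112, 0.35 in 293F and 0.39 in AC1.203.

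**Figure D2:**
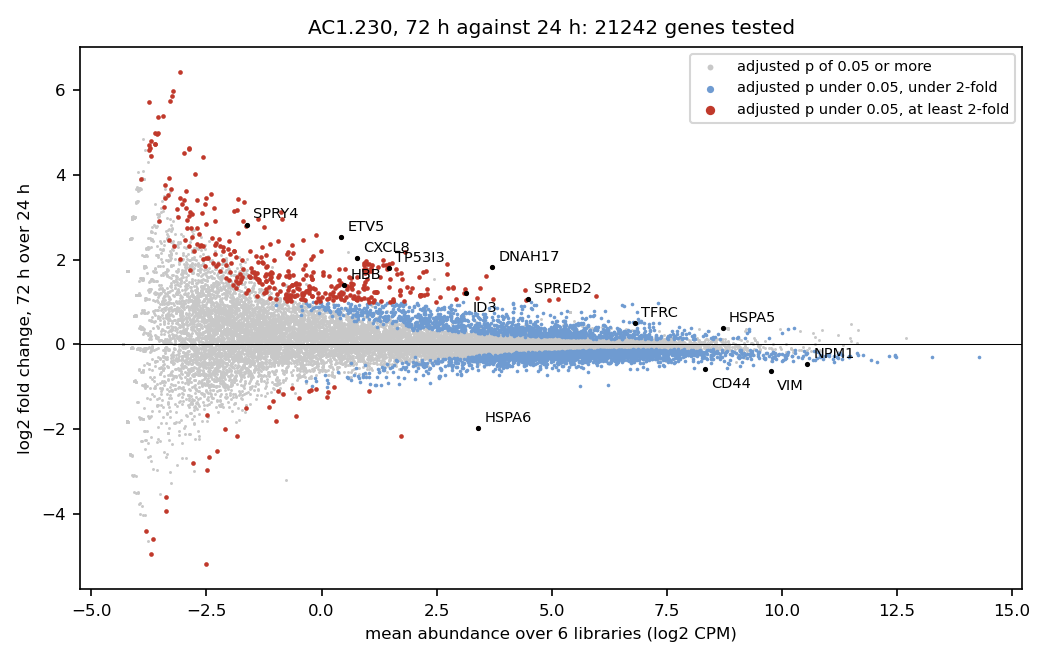
Each point is 1 of 21242 genes, with its mean abundance over the 6 libraries (log2 CPM) on the horizontal axis and its log2 fold change, 72 h over 24 h, on the vertical axis. Red points are called, blue points passed the test under a 2-fold change, and grey points did not pass. Nearly all of the 382 genes called higher lie left of 3 log2 CPM, and HSPA6, at -1.98, is the only gene right of it that was called lower.

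Among abundant protein-coding genes, those with a mean log2 CPM of 3 or more, 12 were called higher and only HSPA6 was called lower. The remaining abundant genes called were the nuclear long noncoding RNA NEAT1 (1.15 on the log2 scale) and the pseudogene ANKRD19P (1.09). HSPA6 (GRCh38 chr1:161524540-161526910) encodes a heat shock chaperone of the HSP70 family that is nearly silent in unstressed cells. It measured 1.47, 1.08 and 1.43 CPM at 0 h, 23.1, 20.5 and 19.9 CPM at 24 h and 5.04, 6.80 and 4.30 CPM at 72 h. All 24 h libraries were thus above all others, and the 72 h libraries still lay above those at 0 h. The change from 24 to 72 h was -1.98 ± 0.17 (SE) on the log2 scale (adjusted p = 5.6e-14), and the 72 h level was 2.02 above the 0 h level (adjusted p = 2.1e-12). The change was -1.09 further down than the mean of the other 4 lines (adjusted p = 3.1e-05), in none of which HSPA6 exceeded 4.59 CPM in a 24 h library.

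The genes raised most were of many kinds. DNAH17, an axonemal dynein heavy chain, measured 1.70, 1.32 and 1.34 CPM at 0 h, 9.60, 5.32 and 6.09 CPM at 24 h and 26.3, 22.4 and 25.9 CPM at 72 h, so that the 3 times did not overlap; the last step was 1.81 ± 0.15 (SE) (adjusted p = 2.6e-11). EEF1A2, a tissue-restricted copy of the elongation factor EEF1A1, went from 5.78, 7.54 and 7.09 CPM to 17.8, 17.5 and 16 CPM (1.34 ± 0.087 (SE), adjusted p = 3.7e-19). It had been at 6.96, 7.73 and 6.37 CPM before transfection, which overlapped the 24 h libraries. EPS8L2, a relative of the actin regulator EPS8, rose by 1.27, and EPHA2, a receptor tyrosine kinase for ephrins, by 1.2, from 6.13, 5.14 and 5.65 CPM to 14.1, 12.4 and 12.5 CPM. The others were the histone gene H1-2 (1.62), ATG16L2 (1.31), ID3 (1.21), PGGHG (1.07), the kinesin KIFC2 (1.07), SPRED2 (1.07), the cytokine IL32 (1.04) and CPNE7 (1.04). All 12 kept an adjusted p under 0.05 when any 1 of the 6 libraries was left out. For DNAH17, EEF1A2, ATG16L2, PGGHG, KIFC2, IL32, CPNE7 and H1-2 the change did not pass the test against the mean change of the other lines. For EPS8L2, EPHA2, ID3 and SPRED2 it was larger in AC1.230 than that mean. In AC1.203 alone, however, EPS8L2 rose by 1.31, beside 1.27 in AC1.230.

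Among genes induced by ERK, 15 rose, 4 fell and 22 did not pass. Of 41 immediate early and ERK-induced genes tested (42 listed), 15 rose (36.6%, beside 7.79% of all genes) and 4 fell, beside 11.7% of all genes, with a median change of 0.19 against -0.01 over all genes. The transcription factor ETV5 (chr3:186046308-186110318), an ETS protein induced by ERK, measured 0.410, 0.543 and 0.664 CPM at 24 h and 3.62, 3.05 and 2.69 CPM at 72 h. No library of a time came near the other time, and the 0 h libraries, at 0.385, 0.580 and 0.466 CPM, overlapped those of 24 h. The change was 2.54 ± 0.28 (SE) (adjusted p = 1.1e-09), on raw counts of 19, 19 and 29 at 24 h and 183, 139 and 109 at 72 h. Its relative ETV4 rose at each step, from 0.136, 0.106 and 0.0622 CPM at 0 h to 0.820, 0.972 and 0.572 CPM at 24 h and 2.55, 1.95 and 1.70 CPM at 72 h (1.41 for the last step, adjusted p = 3.3e-05).

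Of the 10 phosphatases, Sprouty and Spred proteins on this list, 6 rose (beside 7.79% of all genes) and none fell (beside 11.7%). This subset was chosen after values were seen. SPRED2 (chr2:65310851-65432637), which blocks the activation of RAF by Ras, measured 15.1, 15.6 and 15.9 CPM at 24 h and 36.2, 33.1 and 28.2 CPM at 72 h (1.07 ± 0.085 (SE), adjusted p = 2.7e-15). Before transfection it stood at 14.3, 11.3 and 13.6 CPM, close to the 24 h libraries and below all of those at 72 h. SPRED1, its paralog, rose by 0.46, from 12.1, 11.7 and 11.6 CPM to 16.9, 16.2 and 15.7 CPM. SPRY4, a Sprouty protein, was rare: counts of 0, 2 and 1 at 0 h, 6, 3 and 3 at 24 h and 35, 29 and 31 at 72 h gave a ratio of summed counts of 7.24 for 72 h over 24 h (95% exact interval 3.96 to 14.5, counting error only) and adjusted p = 1.1e-04. The phosphatases DUSP4 and DUSP5 rose by 0.99 and 0.80, DUSP4 from 5.78, 6.23 and 5.77 CPM to 11.3, 11.8 and 12.2 CPM. DUSP6, the phosphatase most specific for ERK, rose by 1.61 on few counts (11, 22 and 6, then 50, 48 and 37) and did not pass without replicate 3 at 24 h (adjusted p = 0.071). SPRY2 was 8.09, 8.46 and 8.69 CPM at 24 h and 8.62, 10.7 and 9.43 CPM at 72 h, with overlapping times (adjusted p = 0.15), and DUSP1 (-0.0037), DUSP2 (0.36) and SPRY1 (-0.08) did not pass either.

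The transcription factors of the immediate early class split. FOSL1, a partner of JUN in AP-1, was 3.71, 3.09 and 4.94 CPM and then 7.57, 8.05 and 8.20 CPM (1.01 ± 0.15 (SE)), JUNB went from 13.1, 13.1 and 15.2 CPM to 23.7, 23.6 and 22.8 CPM (0.76 ± 0.087 (SE)), and EGR1 from 23.1, 18.5 and 18.5 CPM to 25.8, 24.3 and 27.7 CPM (0.37 ± 0.10 (SE)). The 24 and 72 h libraries were separate for these 3 genes. ZFP36, which destabilises cytokine messenger RNA, rose by 1.04, IER3, an early survival factor, by 1.07, and PHLDA1 by 0.59. JUN, the abundant subunit of AP-1, fell instead: it measured 423, 419 and 447 CPM at 0 h, 535, 548 and 541 CPM at 24 h and 371, 360.0 and 374 CPM at 72 h, a change of -0.56 ± 0.046 (SE) (adjusted p = 1.9e-14) that took it below its starting level (-0.22 against 0 h, adjusted p = 7.4e-05). ATF3, a stress-induced factor, fell from 154, 138 and 133 CPM to 85.4, 99.2 and 98.8 CPM (-0.59), where it overlapped the 0 h libraries at 89.9, 92.0 and 91.2 CPM. MYC fell by 0.48, and JUND fell by 0.30 but did not pass without replicate 2 at 24 h (adjusted p = 0.11).

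EGR1 is shown by its promoter because it is a textbook target of the serum response factor, which binds the CArG box. In RefSeq promoters on GRCh38.p14 (250 bases before to 50 after the start of transcription, both strands searched), 1.29% of 27303 promoters held a CArG box, as did 2 of the 29 tested immediate early genes with a promoter in the table. Of the 8 such genes that rose with a promoter there, EGR1 was the 1 with a match. The AP-1 core TGANTCA was found in 1 of the 29 (7.76% of all promoters) and the ETS core CCGGAAGT in none of them (4.44% of all promoters), which says only that these letters are not in this window. These motifs were chosen after values were seen. The 200 bases before the start of EGR1 follow, 5′ to 3′ on the strand of the gene, with the CArG boxes in capitals, their first bases at -105 and -83.
EGR1 (chr5:138465279-138465478, plus strand): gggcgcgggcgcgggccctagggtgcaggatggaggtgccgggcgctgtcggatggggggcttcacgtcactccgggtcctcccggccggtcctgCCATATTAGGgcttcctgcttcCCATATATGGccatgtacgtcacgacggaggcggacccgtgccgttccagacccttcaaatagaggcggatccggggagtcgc

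Many NF-kB targets rose and 17 did not pass. Of 32 tested (36 listed), 14 rose (43.8%, beside 7.79% of all genes), 1 fell, and the median change was 0.58. Without replicate 2 at 24 h, 10 rose, none fell and the median was 0.58. The 1 that fell, RIPK2, a kinase upstream of NF-kB, changed by -0.25 and did not pass without replicate 2 at 24 h, replicate 3 at 24 h or replicate 3 at 72 h (adjusted p = 0.078, 0.051 and 0.087).

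Inhibitors of NF-kB were among those that rose. NFKBIA (chr14:35401511-35404749), the inhibitor IkB-alpha and a direct target of NF-kB, measured 38.6, 38.2 and 40.7 CPM at 0 h, 38.4, 39.6 and 37.4 CPM at 24 h and 64.4, 66.6 and 63.7 CPM at 72 h. The 0 and 24 h libraries overlapped and every 72 h library was higher (0.75 ± 0.064 (SE), adjusted p = 3.3e-14). TNFAIP3, the ubiquitin-editing inhibitor A20, was 7.68, 7.72 and 8.58 CPM and then 13.4, 11.9 and 10.6 CPM (0.59 ± 0.13 (SE), adjusted p = 7.3e-04). BCL3, an atypical IkB protein, went from 1.77, 2.57 and 2.93 CPM to 4.78, 4.47 and 4.96 CPM (0.97). Of the NF-kB subunits, RELB rose from 18, 16.8 and 17.1 CPM to 31.8, 31.3 and 31.5 CPM (0.86 ± 0.094 (SE)) and NFKB2 from 43.8, 44.8 and 46.1 CPM to 72.7, 72.0 and 70.1 CPM (0.67 ± 0.058 (SE)); both had risen less between 0 h (13.1, 13.5 and 15 CPM and 38.3, 39.3 and 36.5 CPM) and 24 h. NFKB1, at 56.0, 58.8 and 55.6 CPM and 63.6, 58.8 and 60.2 CPM (adjusted p = 0.24), and RELA, at 99.1, 114 and 105 CPM and 101, 94.6 and 97.5 CPM (adjusted p = 0.13), did not pass.

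Of 10 cytokines and chemokines on the list, 3 rose (beside 7.79% of all genes), and all 10 were rare. CXCL8, the neutrophil chemokine interleukin 8, measured 1.06, 1.1 and 0.412 CPM at 24 h and 2.69, 5.00 and 2.84 CPM at 72 h, or counts of 49, 39 and 18 and 136, 228 and 115. Replicate 2 at 72 h was the highest library, and no 24 h library reached the 72 h range (2.04 ± 0.31 (SE), adjusted p = 1.9e-06). TNF went from 1.04, 0.857 and 0.961 CPM to 2.45, 3.16 and 2.05 CPM (1.42 ± 0.31 (SE), adjusted p = 4.5e-04). CXCL10, an interferon-induced chemokine, had counts of 9, 5 and 7 and 34, 29 and 33, a ratio of 4.18 (95% exact interval 2.59 to 7.06), and did not pass without replicate 2 or 3 at 24 h or replicate 3 at 72 h (adjusted p = 0.085, 0.066 and 0.067). The chemokines CXCL1 (0.87), CXCL2 (0.61), CXCL3 (0.57), CXCL11 (1.21), CCL5 (1.13) and CCL20 (0.53) and the cytokine IL6 (0.84) did not pass, each at a mean under 1 CPM at both times. TRAF1, an adaptor of TNF receptors, rose by 0.72, and IRF1, an interferon regulatory factor, by 0.42, from 10.9, 11.3 and 9.63 CPM to 14.2, 13.9 and 14.5 CPM.

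Promoters of 4 NF-kB targets that rose are shown because a kappa-B consensus lies within 200 bases of each start. The consensus was found in 15 of the 27 tested members with a promoter in the RefSeq table and in 10.83% of all promoters of that length. It was no mark of the members that rose, being in 5 of 12 of those and in 10 of the 15 that did not pass. Each stretch is the 200 bases before the start on GRCh38.p14, 5′ to 3′ on the strand of the gene, with matches on either strand in capitals. Their first bases are at -81 in NFKBIA, -67 and -55 in TNFAIP3, -50 in IRF1, and -177 and -122 in CXCL10. A match is a sequence of letters and no measure of binding.
NFKBIA (chr14:35404750-35404949, minus strand): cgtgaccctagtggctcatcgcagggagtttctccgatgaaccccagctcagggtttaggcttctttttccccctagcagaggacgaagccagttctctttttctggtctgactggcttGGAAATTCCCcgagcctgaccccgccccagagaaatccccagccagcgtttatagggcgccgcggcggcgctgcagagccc
TNFAIP3 (chr6:137867059-137867258, plus strand): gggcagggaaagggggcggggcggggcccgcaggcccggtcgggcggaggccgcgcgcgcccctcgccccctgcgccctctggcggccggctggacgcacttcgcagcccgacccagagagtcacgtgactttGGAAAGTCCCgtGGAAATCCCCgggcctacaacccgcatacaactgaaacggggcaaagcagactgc
IRF1 (chr5:132490774-132490973, minus strand): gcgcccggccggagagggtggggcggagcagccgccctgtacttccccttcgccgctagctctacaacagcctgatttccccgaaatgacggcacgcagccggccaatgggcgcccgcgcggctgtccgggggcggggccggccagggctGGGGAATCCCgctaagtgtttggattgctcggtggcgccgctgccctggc
CXCL10 (chr4:76023498-76023697, minus strand): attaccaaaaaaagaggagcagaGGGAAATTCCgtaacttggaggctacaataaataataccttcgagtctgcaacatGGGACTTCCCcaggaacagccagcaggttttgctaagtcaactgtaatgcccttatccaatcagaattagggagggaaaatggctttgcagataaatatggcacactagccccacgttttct

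**Figure D3:**
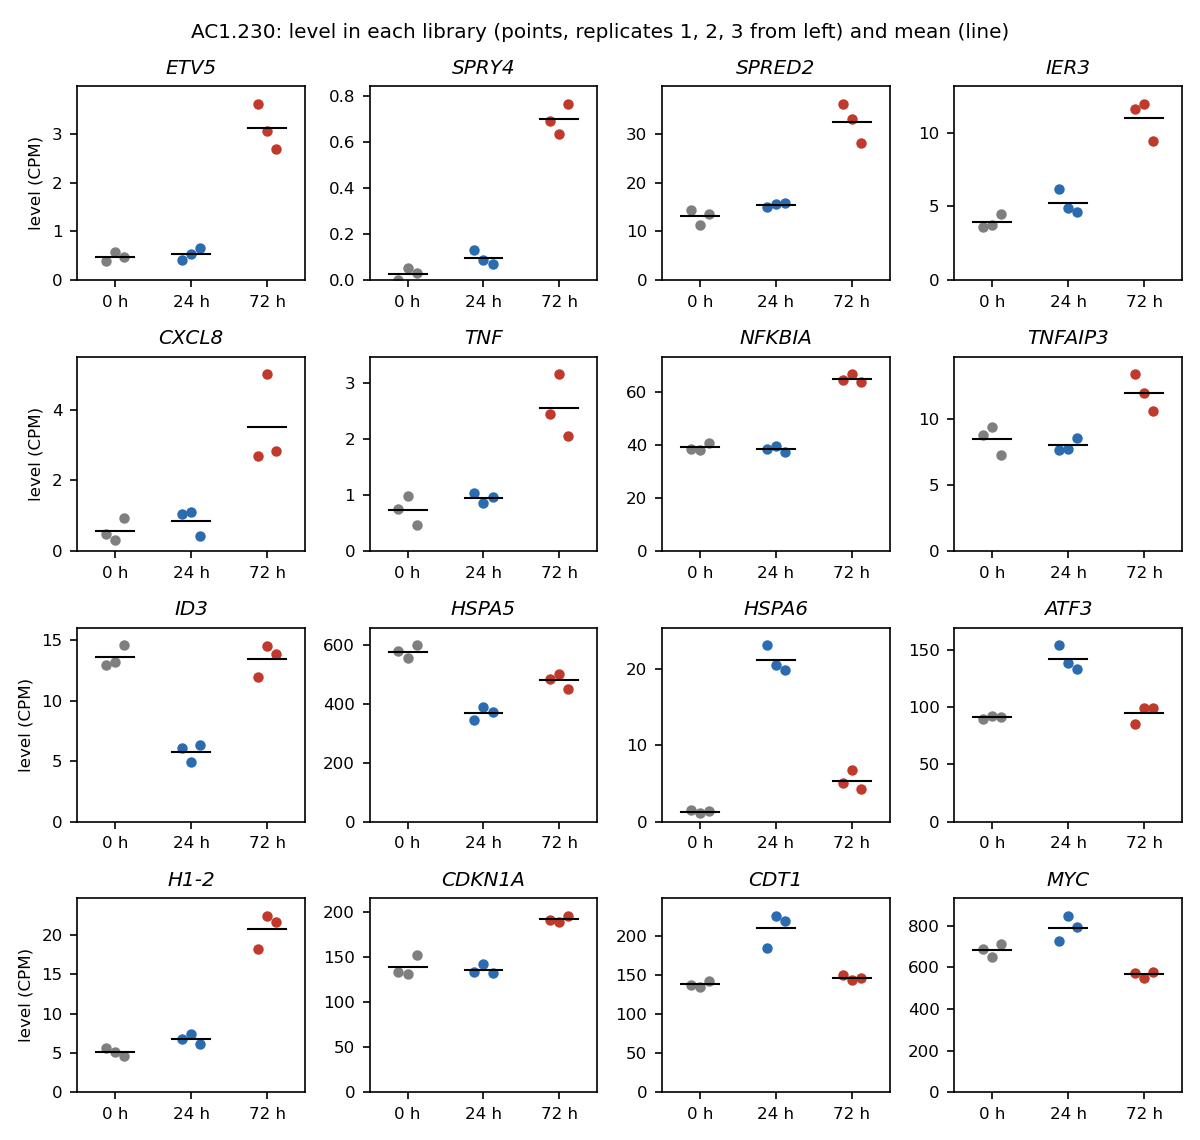
Each panel is 1 gene, with the level of every AC1.230 library (CPM, linear axis from 0) at 0, 24 and 72 h as points and the mean of 3 libraries as a line. ETV5, SPRED2, CXCL8 and NFKBIA stay near their 0 h level at 24 h and rise by 72 h, ID3 and HSPA5 dip at 24 h and recover in whole or in part, and HSPA6, CDT1 and ATF3 peak at 24 h.

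ID3, an inhibitor of basic helix-loop-helix factors and a target of BMP signalling, dipped at 24 h and regained its level by 72 h. It measured 12.9, 13.2 and 14.6 CPM at 0 h, 6.10, 4.97 and 6.34 CPM at 24 h and 12, 14.6 and 13.8 CPM at 72 h. The 24 h libraries were the lowest and the 0 and 72 h libraries overlapped: the step from 24 to 72 h was 1.21 ± 0.10 (SE) (adjusted p = 2.9e-15), and the level at 72 h was -0.01 from that at 0 h (adjusted p = 0.94). Between 24 and 72 h ID3 changed by 0.95 in AC1.112, 0.55 in AC1.203, 0.14 in AC1P and 0.27 in 293F. In AC1.230 ID1 showed the same dip as ID3, with 3.58, 3.03 and 2.67 CPM, 1.27, 1.1 and 1.37 CPM and 2.87, 2.35 and 2.86 CPM (1.09, adjusted p = 2.1e-04). ID2 regained part of its level, from 77.2, 83.5 and 73.7 CPM at 0 h to 32, 34.6 and 32.8 CPM and then 42.9, 44.8 and 46.2 CPM (0.43). Of 27 genes of the BMP, ID and TGF-beta list, 9 rose (33.3%, beside 7.79% of all genes) and 3 fell (11.1%, close to the 11.7% of all genes), with a median of 0.11. Without replicate 2 at 72 h 5 rose, and without replicate 2 at 24 h 7 rose and 2 fell. INHBE, an activin subunit, rose at each step (0.363, 0.264 and 0.342 CPM, 1.21, 1.1 and 1.08 CPM and 3.16, 3.84 and 2.49 CPM, 1.48 for the last). The 3 that fell were PMEPA1, a feedback inhibitor of TGF-beta signalling (-0.49), the corepressor SKI (-0.24), and ID4 (-0.13), the last of which did not pass without replicate 2 or 3 at 24 h or replicate 1 or 2 at 72 h.

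More than 1 in 2 of the p53 targets rose, mostly by small amounts. Of 29 tested, 16 rose (55.2%, beside 7.79% of all genes), 1 fell and 12 did not pass, with a median of 0.16; without replicate 2 at 24 h, 12 rose and 1 fell. CDKN1A, the inhibitor p21 of cyclin-dependent kinases, measured 134, 132 and 153 CPM at 0 h, 133, 143 and 132 CPM at 24 h and 192, 189.6 and 196 CPM at 72 h. The earlier times overlapped and the 72 h libraries were all higher (0.50 ± 0.047 (SE), adjusted p = 1.0e-12). MDM2, which degrades p53, rose by 0.24 from 290.4, 299 and 293 CPM to 355, 354 and 336 CPM. Larger changes were in scarcer genes: TP53I3, a quinone oxidoreductase, went from 1.51, 1.43 and 1.44 CPM to 5.39, 5.28 and 4.47 CPM (1.79 ± 0.16 (SE)), and the stress cytokine GDF15, which other stress pathways induce too, from 2.22, 3.23 and 2.43 CPM to 7.96, 8.81 and 9.13 CPM (1.73 ± 0.15 (SE)). The exception was CCNG1, an abundant target, which fell by 0.30, from 349.9, 434 and 391 CPM to 310.4, 319 and 323 CPM (adjusted p = 6.7e-06). Among other inhibitors of the cycle, CDKN2C (p18) fell by 0.35 and the retinoblastoma relative RBL2 rose by 0.30.

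Close to 1 in 2 genes that act at the entry into S phase fell. Of 52 tested, none rose and 24 fell (46.2%, beside 11.7% of all genes), with a median of -0.12. At an unadjusted p under 0.05 edgeR put 1 higher and 31 lower, and DESeq2 put none higher and 23 lower by adjusted p. Without replicate 2 at 24 h, 17 fell and 1 rose, and without replicate 2 at 72 h 2 rose. CDT1, which loads the replicative helicase, measured 138, 134 and 142 CPM at 0 h, 185, 226 and 219 CPM at 24 h and 149.9, 143 and 146 CPM at 72 h. All 24 h libraries were above all others, and the change after 24 h was -0.52 ± 0.054 (SE) (adjusted p = 3.8e-11), to a level 0.08 from that at 0 h (adjusted p = 0.22). ORC1, a subunit of the origin recognition complex, fell by 0.54, from 53.8, 54.5 and 58.2 CPM to 36.8, 40.6 and 37.4 CPM. The primase PRIM1 and the thymidine kinase TK1 fell by 0.51 and 0.42, to levels below those at 0 h (-0.31 and -0.30). Further members that fell included UNG -0.34, DUT -0.28, GINS2 -0.27, MCM6 -0.26, MCM2 -0.23 and UHRF1 -0.22. Mitotic genes moved less: of 45, 6 rose (13.3%, beside 7.79% of all genes) and 3 fell (6.7%, beside 11.7%), with a median of 0.01. Without replicate 1 at 72 h 2 of these rose, and without replicate 2 at 24 h 1 fell, namely MYBL2, an activator of mitotic genes (365, 420.5 and 399.6 CPM, then 324, 318 and 315 CPM, -0.31).

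Replication-dependent histone genes, whose messages normally end in a stem-loop without a poly(A) tail and are therefore poorly sampled by poly(A) selection, included 15 that rose. Of 60 listed, 39 were tested, 15 rose (38.5%, beside 7.79% of all genes) and none fell (beside 11.7%), with a median of 0.92. Of these, 7 were called higher, beside 1.8% of all genes. None was lower at an unadjusted p under 0.05 in edgeR or by adjusted p in DESeq2, against 21 and 16 higher. H1-2, a linker histone, measured 5.62, 5.17 and 4.66 CPM at 0 h, 6.79, 7.37 and 6.13 CPM at 24 h and 18.2, 22.4 and 21.6 CPM at 72 h (1.62 ± 0.09 (SE), adjusted p = 3.7e-22). Its 72 h libraries lay well above all earlier ones. H2BC21, which is known to give polyadenylated messages, rose from 3.15, 3.40 and 2.33 CPM to 6.32, 6.60 and 6.91 CPM (1.16), H3C10 from 1.51, 1.00 and 1.19 CPM to 2.49, 3.53 and 3.36 CPM (1.32) and H4C8 from 0.949, 0.857 and 0.549 CPM to 2.37, 2.08 and 1.95 CPM (1.45). Reads of near-identical histone genes, H4C14 and H4C15 among them, may be split by the counting. The medians in the other lines were 0.45 in AC1.112, 0.94 in AC1.203, 0.51 in AC1P and 0.23 in 293F.

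Chaperones of the endoplasmic reticulum, which fold secreted and membrane proteins, regained part of their level. HSPA5 (BiP), the main chaperone there and sensor of unfolded protein, measured 578, 556 and 599.6 CPM at 0 h, 347, 389 and 371 CPM at 24 h and 485, 503 and 452 CPM at 72 h. The 3 times did not overlap: it rose by 0.38 ± 0.051 (SE) after 24 h (adjusted p = 7.3e-08) and stayed -0.27 from its 0 h level (adjusted p = 1.7e-05). HSP90B1 (GRP94), at 971, 994 and 1003 CPM and then 1254, 1299 and 1249 CPM, and the lectin chaperone CALR, at 513, 593 and 567 CPM and then 705, 733 and 696 CPM, rose by 0.36 and 0.35. HYOU1, an exchange factor of HSPA5, rose by 0.32, and DERL3, of the degradation machinery, by 0.55. Of 30 genes of the unfolded protein response, 9 rose (30%, beside 7.79% of all genes) and 2 fell, SERP1 (-0.24) and CREB3L2 (-0.14). The count that fell was 4 without replicate 1 at 24 h and 1 without any other single library except replicate 1 at 72 h, and the count that rose stayed at 9 without replicate 2 at 24 h.

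Stress pathways of the cytoplasm gave a mixed picture. Of 44 targets of ATF4 and the amino acid response, 10 rose (22.7%, beside 7.79% of all genes) and 11 fell (25%, beside 11.7%), 6 without replicate 2 at 24 h. NUPR1, a stress-induced chromatin protein, went from 9.12, 8.95 and 9.50 CPM to 17.1, 17.2 and 15.4 CPM (0.85), and ASNS, asparagine synthetase, from 65.9, 64.0 and 61.4 CPM to 73.9, 84.4 and 79.6 CPM (0.31), while the serine synthesis enzyme PSPH fell by 0.36 and the amino acid carriers SLC1A4 -0.36, SLC3A2 -0.27 and SLC1A5 -0.25 fell as well. ATF4 itself was 352, 343 and 334 CPM and 358, 373 and 375 CPM (adjusted p = 0.12). Of 26 heat shock chaperones, 9 fell (34.6%, beside 11.7% of all genes) and 2 rose (7.7%, close to the 7.79% of all genes). Without replicate 2 at 24 h 4 fell and 1 rose, without replicate 3 at 72 h likewise 4 and 1, and without replicate 2 at 72 h 1 rose. HSPA8, the constitutive HSP70, fell from 1196, 1251 and 1168 CPM to 973, 1069 and 977 CPM (-0.26), and the mitochondrial HSPD1 by 0.25. HSPA1A and HSPA1B, near-identical copies that share reads, changed by -0.22 and -0.22 and did not pass without replicate 2 at 24 h or replicate 3 at 72 h.

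Sterol genes moved in both directions. HMGCS1, which feeds HMG-CoA reductase, measured 934, 946 and 915 CPM at 0 h, 566, 546 and 552 CPM at 24 h and 689, 676 and 645 CPM at 72 h, a recovery of 0.27 ± 0.042 (SE) (adjusted p = 1.7e-06). INSIG1, a sterol-regulated brake on this pathway, rose by 0.32 and IDI1 by 0.30, and all 3 remained below their 0 h levels (-0.48, -0.64 and -0.32). PMVK and SQLE fell by 0.47 and 0.25. In the whole list of 27, 7 rose and 7 fell (25.9% each, beside 7.79% and 11.7% of all genes), 6 and 2 without replicate 2 at 24 h. TFRC, the transferrin receptor that brings in iron, rose from 97.8, 90.5 and 94.9 CPM to 132, 142 and 126 CPM (0.50 ± 0.053 (SE), adjusted p = 9.9e-11), and was 0.18 above its 0 h level (adjusted p = 0.0042). NCOA4, the receptor for the breakdown of ferritin, fell from 230.1, 247 and 232 CPM to 182, 180.0 and 173 CPM (-0.41).

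Counts of energy metabolism genes that fell were smaller without replicate 2 at 24 h, as was the count over all genes. Of 75 nuclear genes of oxidative phosphorylation, none rose and 24 fell (32%, beside 11.7% of all genes), with a median of -0.14. At an unadjusted p under 0.05 edgeR put 1 higher and 36 lower, and DESeq2 put 1 and 24 by adjusted p. The count that fell changed with the libraries: 12 fell without replicate 2 at 24 h or replicate 1 at 72 h. Without replicate 3 at 72 h 14 fell, and 1 rose without replicate 3 at 24 h. The count over all genes went down as well, from 2485 to 1219 without replicate 2 at 24 h. It was 1901 without replicate 1 at 72 h and 1713 without replicate 3 at 72 h. NDUFB10, of complex I, went from 116, 142 and 126 CPM to 96.2, 99.2 and 93.4 CPM (-0.41), UQCRC1, of complex III, from 142, 174 and 157 CPM to 123, 123 and 120.0 CPM (-0.37) and ATP5F1C, of the ATP synthase, from 123, 139 and 120.2 CPM to 99.0, 103 and 92.5 CPM (-0.38). Of 33 genes of the tricarboxylic acid cycle and fatty acid oxidation, 14 fell (42.4%, beside 11.7% of all genes), 5 without replicate 2 at 24 h. The 1 that rose (3.0%, beside 7.79% of all genes) was the dehydrogenase ACADVL (68.4, 57.6 and 58.7 CPM, then 90.7, 81.5 and 99.3 CPM, 0.55). HADH, of the same pathway, fell by 0.41. Of 28 glycolysis genes 11 fell (39.3%, beside 11.7% of all genes) and 3 rose (10.7%, beside 7.79%). However, 1 fell without replicate 2 at 24 h, 7 without replicate 3 at 24 h and 6 without replicate 3 at 72 h. GAPDH, at 1376, 1766 and 1625 CPM and 1376, 1375 and 1329 CPM, was -0.22 and did not pass without replicate 2 at 24 h, whereas the glucose carrier SLC2A3 rose by 0.58 and PFKFB2 by 0.40 whichever library was left out.

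Of the 13 mitochondrially encoded genes, only MT-ND5 rose (0.38, adjusted p = 0.048), or 7.7%, close to the 7.79% of all genes. Without replicate 3 at 24 h 6 of them did, and without any other single library none did. The median change of these 13 genes was nevertheless 0.315, and none fell (beside 11.7% of all genes). At an unadjusted p under 0.05 edgeR put 7 higher and 0 lower, and DESeq2 put 2 and 0 by adjusted p. Oxidative stress genes differed among themselves. HMOX1, the haem oxygenase, measured 6.08, 5.96 and 6.59 CPM at 0 h, 2.67, 3.29 and 2.91 CPM at 24 h and 4.60, 4.87 and 5.75 CPM at 72 h (0.78 ± 0.11 (SE), adjusted p = 3.2e-07), and the quinone reductase NQO1 rose by 0.88 and the autophagy receptor SQSTM1 by 0.35. These 3 were the only members of 32 that rose (9.4%, near the 7.79% of all genes). Another 12 fell (37.5%, beside 11.7%), among them the transketolase TKT (-0.39). Without replicate 2 at 24 h 6 fell, and without replicate 1 or 3 at 72 h 7 did.

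Messages of the cytosolic ribosome gave the lowest median of the lists with 20 or more members. Of 79, 62 fell (78.5%, beside 11.7% of all genes) and 1 rose, with a median of -0.24. The count was 21 without replicate 2 at 24 h, 32 without replicate 1 at 72 h and 37 without replicate 3 at 72 h, and the median without replicate 2 at 24 h was -0.17. RPSA went from 2477, 2763 and 2525 CPM to 1821, 2162 and 1838 CPM (-0.42), with replicate 2 the highest library at 72 h. The 1 that rose, RPL36A, was scarce, at 4.83, 3.89 and 4.19 CPM and then 6.36, 6.40 and 7.36 CPM. These genes have many processed pseudogenes, and the way shared reads were counted is not given. Of 42 genes of ribosome biogenesis 10 fell (23.8%, beside 11.7% of all genes) and 3 rose (7.1%, close to the 7.79% of all genes). Without replicate 2 at 24 h 4 fell, and without replicate 3 at 72 h 1 rose. NPM1, the nucleolar chaperone nucleophosmin, fell from 1657, 1858 and 1759.9 CPM to 1224, 1351 and 1249 CPM (-0.46 ± 0.055 (SE), adjusted p = 1.8e-09), and NOB1, which trims the small subunit RNA, by 0.44. MYC, which drives these genes, measured 688, 649.9 and 712 CPM at 0 h, 727, 846 and 795 CPM at 24 h and 573, 548 and 578 CPM at 72 h, with all 72 h libraries lowest (-0.48 ± 0.047 (SE), adjusted p = 6.4e-12).

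Matrix and adhesion genes moved both ways. Of 48 tested, 17 rose (35.4%, beside 7.79% of all genes) and 10 fell (20.8%, beside 11.7%); without replicate 2 at 24 h 16 rose and 4 fell, and without replicate 2 at 72 h 6 fell. Collagens were among the members that rose, with COL12A1 0.93, COL5A2 0.65, COL5A1 0.55, COL1A1 0.48, COL18A1 0.42 and COL6A2 0.41, as were the laminin LAMA5 (0.62) and the protease MMP2, from 75.6, 101 and 95.6 CPM to 132, 133 and 128 CPM (0.53). The hyaluronan receptor CD44 fell from 359, 419 and 402 CPM to 263, 260.2 and 263 CPM (-0.59 ± 0.054 (SE), adjusted p = 3.9e-13), to -0.23 against 0 h (adjusted p = 4.1e-04), and the protease inhibitor TIMP3 from 184, 197 and 198 CPM to 138, 128 and 138 CPM (-0.52 ± 0.052 (SE)). VIM, the intermediate filament vimentin, fell from 944, 1180.3 and 1126 CPM to 699, 694 and 713 CPM (-0.63 ± 0.058 (SE), adjusted p = 6.4e-13) and the cytoplasmic actin ACTG1 by 0.37. Fibroblast markers summed to 90.8 to 103 CPM at 24 h and 113 to 125 CPM at 72 h, with THY1 at 0 in all 6 libraries.

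Interferon-stimulated genes changed in few members. Of 43 tested (49 listed), 9 rose (20.9%, beside 7.79% of all genes) and 1 fell, with a median of 0.08. ISG15, a ubiquitin-like modifier, measured 4.15, 4.67 and 4.45 CPM at 0 h, 5.00, 3.89 and 5.31 CPM at 24 h and 8.06, 9.08 and 8.12 CPM at 72 h (0.82 ± 0.14 (SE), adjusted p = 1.6e-05). TRIM22, an antiviral ubiquitin ligase, went from 1.77, 2.63 and 2.11 CPM to 4.82, 5.26 and 4.42 CPM (1.17) and the RNA sensor IFIH1 (MDA5) from 0.345, 0.629 and 0.481 CPM to 1.38, 0.965 and 1.09 CPM (1.27). All of these stayed below 10 CPM, and for each the 72 h libraries were separate from those at 24 h. For ISG15 the 0 and 24 h libraries overlapped. The 1 that fell, TRIM25, changed by -0.18 and did not pass without replicate 2 or 3 at 24 h or replicate 2 at 72 h.

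**Figure D4:**
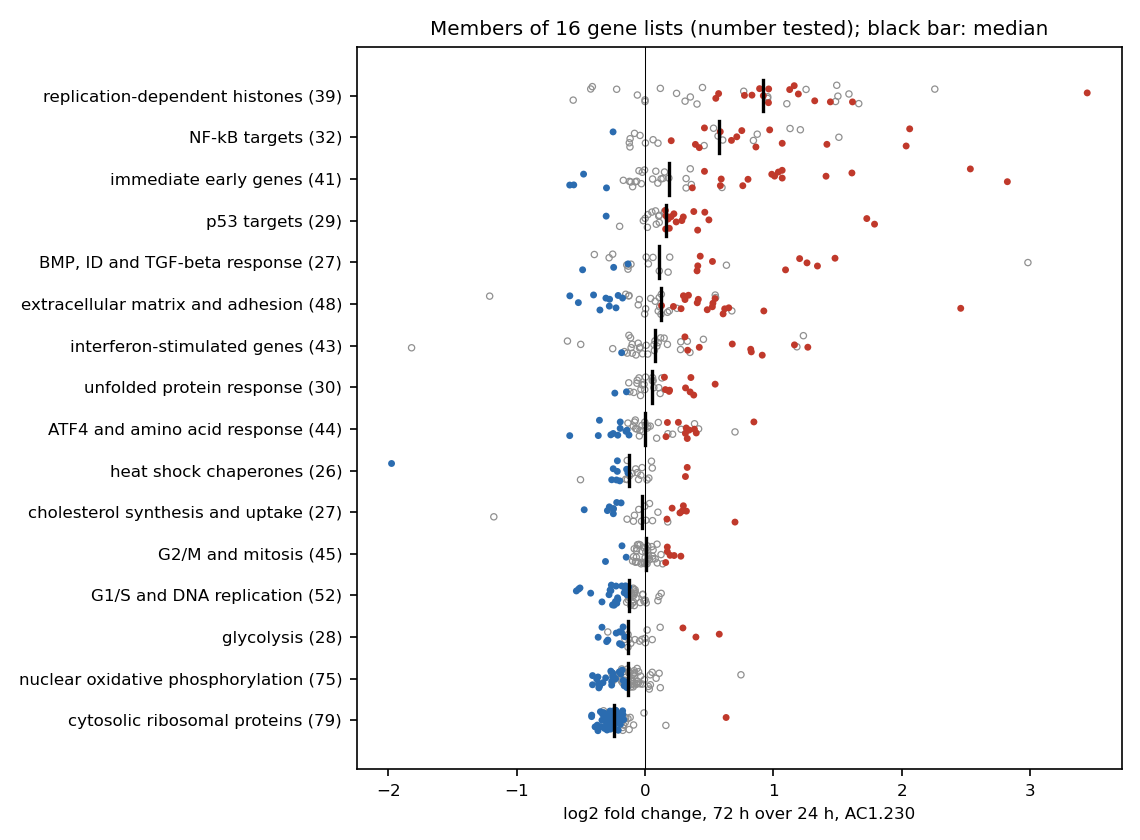
Each row is 1 of 16 gene lists and each point a tested member, with its log2 fold change, 72 h over 24 h, on the horizontal axis. Red members rose, blue members fell, open members did not pass, and the black bar is the median. The bar lies at 0.92 for histones, 0.58 for NF-kB targets and -0.25 for cytosolic ribosomal proteins.

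The change in AC1.230 was then set against the mean change of the other 4 lines by an interaction test. It was called higher in AC1.230 for 64 genes (0.301%) and lower for 148 (0.697%), and with no minimum size for 1362 (6.41%) and 1677 (7.89%). Leaving out a line moved these counts: without AC1.203, the line with the widest response, 32 were called higher and 62 lower, without AC1P 105 and 318, without 293F 83 lower and without AC1.112 101 higher. Of the NF-kB targets, 12 of 32 were higher in AC1.230 than in the mean of the others and none was lower (13 and 1 at an unadjusted p under 0.05 in edgeR, 11 and 0 by adjusted p in DESeq2). Of the immediate early genes 14 of 41 were higher and 3 lower.

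NFKBIA changed by 0.16 in AC1.112, -0.45 in AC1.203, -0.11 in AC1P and -0.09 in 293F, beside 0.75 in AC1.230, a difference of 0.87 ± 0.073 (SE), adjusted p = 4.4e-14. Its libraries in AC1.203 went from 24.1, 24.6 and 26.9 CPM to 17.7, 18.5 and 19.3 CPM. IER3 stood at 6.19, 4.89 and 4.62 CPM at 24 h in AC1.230, below every 24 h library of the other lines, and at 11.6, 12 and 9.45 CPM at 72 h, within their range (difference 1.2 ± 0.13 (SE), adjusted p = 1.9e-10). SPRED2 changed by -0.05 in AC1.112, -0.21 in AC1.203, 0.44 in AC1P and 0.20 in 293F, with a smaller rise in AC1P and 293F than in AC1.230 (difference over the 4 lines 0.97 ± 0.095 (SE), adjusted p = 8.0e-12). ETV5 changed by -0.26 in AC1.112, 0.25 in AC1.203, 0.22 in AC1P and 1.71 in 293F (difference 2.05 ± 0.31 (SE), adjusted p = 1.9e-06), and its levels in 293F, 2.06, 4.54 and 2.20 CPM at 24 h and 8.03, 9.66 and 11 CPM at 72 h, rose as well.

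CXCL8 passed the test in none of the other lines, with changes of -0.04 in AC1.112, -0.02 in AC1.203, 0.04 in AC1P and -0.40 in 293F (difference 2.14 ± 0.34 (SE), adjusted p = 7.1e-06). In AC1.112 it was already 4.03, 5.55 and 6.23 CPM at 24 h, above the 24 h libraries of AC1.230. EGR1 changed by -0.08 in AC1.112, -1.60 in AC1.203, -0.31 in AC1P and -0.38 in 293F, so that the change was positive in AC1.230 and negative in the other 4 (difference 0.96 ± 0.11 (SE), adjusted p = 9.8e-09). TNF differed by 1.14 ± 0.35 (SE), adjusted p = 0.019, but did not pass without replicate 2 or 3 at 24 h, replicate 2 at 72 h or the line AC1.203 (adjusted p = 0.0503, 0.052, 0.087 and 0.072). HSPA5 changed by 0.01 in AC1.112, -0.07 in AC1.203, 0.08 in AC1P and -0.30 in 293F (difference 0.45 ± 0.057 (SE), adjusted p = 1.9e-08). HSP90B1 changed by 0.17 in AC1.112, 0.12 in AC1.203, 0.10 in AC1P and -0.03 in 293F (difference 0.27 ± 0.053 (SE), adjusted p = 1.9e-04), and CALR by 0.14 in AC1.112, -0.00037 in AC1.203, 0.16 in AC1P and 0.08 in 293F (difference 0.26 ± 0.053 (SE), adjusted p = 3.1e-04). In the unfolded protein response list 16 of 30 members were higher in AC1.230 than in the mean of the others and 1 lower. Other lists had like shares: ribosome biogenesis 22 of 42 higher and 2 lower, the ATF4 list 19 of 44 and 1, splicing factors 18 of 39 and 2, and heat shock chaperones 10 of 26 and 3. The median change in ribosome biogenesis was -0.055 in AC1.230, -0.157 in AC1.112, -0.411 in AC1.203, -0.034 in AC1P and -0.371 in 293F. Of 79 cytosolic ribosomal proteins, 0 were higher and 10 lower. In the mitotic list 19 of 45 were higher and none lower, beside 6.41% and 7.89% of all genes. For the mitotic list an unadjusted p under 0.05 in edgeR put 28 higher and 0 lower, and DESeq2 put 24 and 0 by adjusted p. The median change of that list was 0.01 in AC1.230, -0.14 in AC1.112, -0.34 in AC1.203, 0.01 in AC1P and -0.21 in 293F.

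Of the matrix genes, 25 of 48 were lower in AC1.230 than in the mean of the others and 2 higher, beside 7.89% and 6.41% of all genes. The median change of the list was 0.13 in AC1.230, 0.38 in AC1.112, 0.66 in AC1.203, 0.00 in AC1P and 0.55 in 293F, so that AC1P lay below AC1.230. MMP2 rose by 0.53 in AC1.230 and changed by 1.1 in AC1.112, 2.04 in AC1.203, 0.28 in AC1P and 1.31 in 293F (difference -0.66 ± 0.075 (SE), adjusted p = 9.3e-10). LAMB1, a laminin chain, was 59.1, 64.4 and 63.8 CPM and 63.0, 59.0 and 59.5 CPM in AC1.230 and changed by 0.32 in AC1.112, 1.1 in AC1.203, -0.04 in AC1P and 0.61 in 293F (difference -0.54 ± 0.065 (SE), adjusted p = 4.3e-09). CDT1 changed by -0.52 in AC1.230, beside -0.11 in AC1.112, 0.34 in AC1.203, -0.28 in AC1P and 0.36 in 293F, so that it fell in AC1P too (difference -0.59 ± 0.06 (SE), adjusted p = 2.5e-11). TXNIP, an arrestin induced by glucose, rose by 0.24, beside 0.83 in AC1.112, 1.83 in AC1.203, 0.32 in AC1P and 0.62 in 293F (difference -0.66 ± 0.055 (SE), adjusted p = 4.4e-14). The neurotrophin receptor NGFR was 4.98, 6.57 and 6.20 CPM and 7.07, 7.94 and 7.48 CPM in AC1.230, whereas in AC1.203 it went from 3.02, 4.08 and 4.04 CPM to 42.7, 47.1 and 46.9 CPM (difference -1.18 ± 0.12 (SE), adjusted p = 1.4e-10). The interferon-induced membrane protein BST2 was 5.11, 6.40 and 6.48 CPM and 5.47, 6.62 and 5.33 CPM, with overlapping times, and changed by 0.67 in AC1.112, 2.20 in AC1.203, 0.37 in AC1P and 2.21 in 293F (difference -1.41 ± 0.18 (SE), adjusted p = 4.2e-08).

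**Figure D5:**
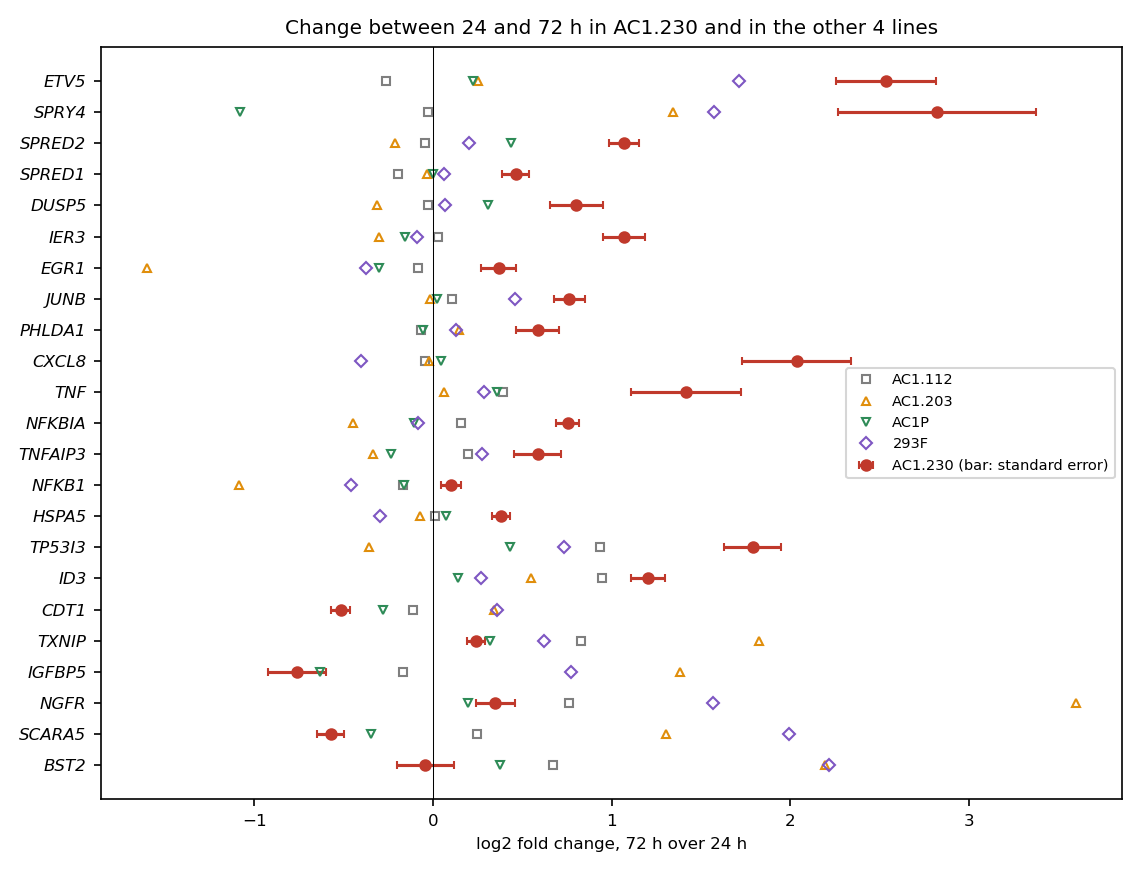
Each row is 1 gene, with its log2 fold change, 72 h over 24 h, in AC1.230 as a red point with its standard error and in the 4 other lines as open symbols. CXCL8 lies at 2.04 in AC1.230 and at 0.04 or less in the others, and NGFR, SCARA5 and BST2 lie far to the right in AC1.203 and 293F but not in AC1.230.

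GNE (chr9:36214441-36277056), the key enzyme of sialic acid synthesis, set AC1.230 apart at every time. It had counts of 8, 5 and 6 at 0 h, 2, 0 and 0 at 24 h and 14, 11 and 3 at 72 h in this line, and in no library of the other 4 lines fewer than 780. In AC1.112, the line with the lowest level at 72 h, it measured 25.6, 25 and 23.2 CPM at 24 h and 27.2, 23.7 and 25.2 CPM at 72 h. Within AC1.230 the ratio of summed counts, 72 h over 24 h, was 12.8 (95% exact interval 3.23 to 111), on 28 counts against 2. At this depth the level was near 0 at all 3 times, and the test of 72 h against 0 h did not pass (0.29, adjusted p = 0.62).

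Among human sequences that are often built into expression plasmids, HBB, the beta-globin gene, had no count in any 0 h library, where a count of 0 allows up to 3 counts per library. It then had 53, 28 and 26 counts at 24 h and 92, 107 and 104 at 72 h, a ratio of 2.59 (95% exact interval 2.07 to 3.26) and a log2 fold change of 1.39 ± 0.24 (SE) (adjusted p = 1.8e-05). Whether the transfected plasmids carry parts of this gene is not given in the sources used here. Members of high cellular level included EEF1A1, which changed by -0.30, and PGK1, which changed by -0.16 and did not pass without replicate 2 at 24 h (adjusted p = 0.13). Of 31 host factors for the entry and trafficking of the virus, 1 rose (3.2%, beside 7.79% of all genes) and 6 fell (19.4%, beside 11.7%). ITGAV, an integrin chain, rose from 46.5, 41.7 and 42.4 CPM to 55.0, 53.1 and 52.8 CPM (0.30), VPS51, of a tethering complex at the Golgi, fell from 89.5, 112 and 97.5 CPM to 77.2, 76.2 and 76.1 CPM (-0.38), and EXT1, which builds heparan sulfate, fell by 0.30. Without replicate 2 at 24 h or replicate 3 at 72 h, 2 of these factors rose.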

How the data were processed

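Counts of reads per Ensembl gene were deposited by the authors as raw, unnormalised values, 1 table per library. The libraries were poly(A)-selected and stranded, per the labels' protocols, and HISAT2, Subread with featureCounts, and GRCh38 are named in the submitters' processing notes; the sources used here do not give the annotation release or the strand setting, so reads of overlapping or antisense genes may be shared. Symbols and positions came from GENCODE 29.

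All 45 libraries (24727028 to 59837051 counts) entered 1 fit in edgeR 4.0.16 (R 4.3.3), with 15 groups of line and time, TMM scaling, the filterByExpr minimum of 10 counts (15 in all) and the robust quasi-likelihood test. That left 21242 of 60675 genes. p-values were adjusted by the Benjamini-Hochberg method over all of them, and every adjusted p in the text is from edgeR. CPM was computed from the deposited counts with the TMM factors, and fold changes are on the log2 scale with edgeR's standard error. The difference between lines is an interaction term: the change in AC1.230 minus the equally weighted mean change of AC1.112, AC1.203, AC1P and 293F. On simulated data of 21242 genes, the test of AC1.230 at 72 h against 24 h was scored by significance only, whatever the size of the change. It detected 68.7% of genes changed 1.5-fold, 94.0% of those changed 2-fold and 100% of those changed 4-fold, with 9 false detections among unchanged genes. These shares do not apply to called genes and were not split by abundance. The changed genes were drawn only from those above a minimum mean count at 24 h. Every simulated gene had the same fixed spread, and libraries were independent. A library that stands apart, like replicate 2 at 24 h, was not simulated, so the shares do not cover that case or scarcer genes. The interaction term was not simulated.

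The comparison and the 44 gene lists were chosen with earlier results of these data known, so the lists' directions are no independent evidence. Genes were named by a rule: up to 12 abundant protein-coding genes called in each direction, by size of change; up to 4 members of each list that passed, or the 2 most abundant where none did; up to 5 genes in each direction called for the difference from the other lines; HBB; and members that went against their list. The first parts gave 161 genes. Another 60 genes, and list members given by fold change alone, were chosen after their values were seen. Alternatives were DESeq2 1.42.0, its size factors within edgeR, no filter, fits to 6 or 9 libraries, thinned counts, each library or other line left out, and a block. Results for a few genes are not reported here. Depth per library is the total count; exact intervals of count ratios cover counting error only.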

Additional observations from a re-analysis of the deposited data

Results flagged for a closer look

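For 14 genes the change from 24 to 72 h in AC1.230 differed from the mean change of the other 4 lines by an interaction test in edgeR, with values on the log2 scale and adjusted p under 0.05. For 9 of them AC1.230 rose more: GNE 3.25, CXCL10 2.42, SPRY4 2.37, CXCL8 2.14, ETV5 2.05, INHBA 1.5, TP53I3 1.35, IER3 1.2 and TNF 1.14. For 5 it fell further or rose less: BST2 -1.41, SCARA5 -1.37, NGFR -1.18, IGFBP5 -1.1 and HSPA6 -1.09. Several of these rest on few counts. GNE had 28 counts over the 72 h libraries and 2 over those at 24 h in AC1.230, beside 780 or more in every library of the other lines. SPRY4 had 95 and 12. The difference in INHBA, an activin subunit, did not pass without replicate 2 or 3 at 24 h, replicate 2 at 72 h, 293F or AC1.203 (adjusted p = 0.11, 0.057, 0.15, 0.28 and 0.089), and that in CXCL10 did not pass without replicate 2 or 3 at 24 h, replicate 1 or 3 at 72 h, 293F, AC1.203 or AC1P (adjusted p up to 0.0744). The difference in TNF did not pass without replicate 2 or 3 at 24 h, replicate 2 at 72 h or AC1.203 (adjusted p up to 0.0871). SCARA5, a ferritin receptor, measured 30.6, 33.9 and 33.8 CPM at 24 h and 21.5, 20.9 and 23.6 CPM at 72 h in AC1.230, where it was -0.57, against 0.25 in AC1.112, 1.30 in AC1.203, -0.34 in AC1P and 1.99 in 293F. IGFBP5, a binding protein of insulin-like growth factors, fell from 2.01, 3.03 and 2.45 CPM to 1.38, 1.51 and 1.48 CPM in AC1.230 (-0.76, adjusted p = 3.8e-04) and changed by -0.17 in AC1.112, 1.39 in AC1.203, -0.63 in AC1P and 0.77 in 293F.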

How the results depend on the processing

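Across the alternatives, 2639 of 2863 values for 221 named genes kept their direction and their side of the threshold, 217 no longer passed, 2 passed newly and 5 reversed. The reversed values are of genes that did not pass: CYP3A4, between -0.24 (without replicate 1 at 72 h) and 1.39 with 1 library left out, and BST2, at 0.078 with thinned counts and between -0.15 and 0.018 with 1 library left out. With 1 library left out the genes called higher numbered 235 to 435 and those called lower 16 to 35, and those that fell with no minimum fold 1219 to 2720; the lowest of each was without replicate 2 at 24 h. The fit to 6 libraries called 14 lower and found 1211 that fell, and the fit to 9 libraries 1597, with fewer samples behind the spread. The difference from the other lines was called higher for 101 genes without AC1.112, 32 without AC1.203 and 105 without AC1P, and lower for 83 without 293F, 62 without AC1.203 and 318 without AC1P; the cause was not tested. List medians moved by more than the spread in 5 of 572 values and list counts by over 1.5 times in 198 of 1144. Same-numbered libraries deviated together at r = 0.02, 0.25 and 0.11, and replicate 1 at 24 h went best with replicate 3 at 72 h (0.20), so the numbers were not taken as pairs. With the number as a replicate block 348 genes were called higher and 26 lower, 1629 rose and 2552 fell, and the difference was called for 52 and 120. Of the named genes, TLR3 alone no longer passed the edgeR test (adjusted p = 0.069). The scaling moved the median of all genes to no more than -0.01 or 0.01. Depth limits genes under about 1 CPM, where 3 libraries hold few counts.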

Other observations

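Lysosomal and autophagy genes moved both ways after 24 h in AC1.230. Of 52, 10 rose and 14 fell (19.2% and 26.9%, beside 7.79% and 11.7% of all genes), but 5 fell without replicate 2 at 24 h, 9 without replicate 3 at 24 h or replicate 1 at 72 h and 7 without replicate 3 at 72 h. ARSA, which degrades sulfatides, went from 8.95, 11 and 10.6 CPM to 14.2, 13.1 and 15.1 CPM (0.47), the protease CTSF from 10.2, 9.89 and 11.9 CPM to 14.1, 14.4 and 15.2 CPM (0.45) and the chloride exchanger CLCN7 from 63.7, 61.4 and 67.0 CPM to 82.8, 79.8 and 89.3 CPM (0.39). The kinase ULK1, which starts autophagy, rose by 0.37, while the hydrolases HEXA -0.30, CTSL -0.28 and ASAH1 -0.27 were lower. Of 39 splicing factors and CLK kinases, 10 rose (25.6%, beside 7.79% of all genes) and 6 fell (15.4%, near the 11.7% of all genes), with SRSF5 from 113, 80.2 and 95.2 CPM to 141, 141 and 158 CPM (0.61, adjusted p = 1.0e-04) and CLK2, a kinase of these factors, at 0.34. Without replicate 3 at 72 h 6 rose and 2 fell, and 2 or 3 fell without replicate 2 at 24 h or replicate 1 or 2 at 72 h.

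Genes of cell death were mixed. Of 31, 7 rose (22.6%, beside 7.79% of all genes) and 5 fell (16.1%, beside 11.7%), 4 rose without replicate 3 at 24 h, and 3 fell without replicate 2 at 24 h or replicate 1 or 2 at 72 h. CFLAR, an inhibitor of caspase-8, rose from 26.2, 20.1 and 21.8 CPM to 32.8, 28.9 and 28.9 CPM (0.41) and BCL2L2, a survival protein, by 0.39, and the promoters of death BAD and BID fell by 0.36 and 0.35. Among the glucose-sensing genes, ARRDC4, a relative of TXNIP, went from 83.2, 84.1 and 88.7 CPM to 126, 127 and 118 CPM (0.54) and the glucose-sensing factor MLXIPL from 5.67, 4.80 and 5.35 CPM to 9.74, 8.77 and 9.18 CPM (0.80). Of 16 secretory granule genes tested, 4 rose (25%, beside 7.79% of all genes) and none fell (beside 11.7%). At an unadjusted p under 0.05 edgeR put 5 higher and 2 lower, and DESeq2 put 4 and 0 by adjusted p. VGF, a neuropeptide precursor, measured 1.79, 1.77 and 1.56 CPM at 24 h and 3.89, 5.15 and 3.97 CPM at 72 h (1.35 ± 0.20 (SE), adjusted p = 8.0e-07), with every 72 h library above every 24 h library, and the vesicle protein RAB3B went from 5.48, 3.92 and 4.12 CPM to 9.29, 6.23 and 8.84 CPM (0.84). KDM6B, which removes methyl groups from lysine residues of histone H3, rose from 24.4, 23.1 and 22 CPM to 33.2, 30.6 and 32.9 CPM (0.48). Chromatin-modifying enzymes as a list of 66 changed in few members, 4 up and 6 down, or 6.1% and 9.1% beside 7.79% and 11.7% of all genes. The number that rose was 7 without replicate 1 at 24 h and 9 without replicate 2 at 72 h, and that which fell 0 without replicate 2 at 24 h and 3 without replicate 2 at 72 h.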
